A study of Mus musculus with 12 samples.

Results

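The genes described here are 10 members of the transforming growth factor beta (TGF-beta) pathway in mouse bone marrow monocytes: the ligand gene Tgfb1, the receptor genes Tgfbr1 and Tgfbr2, the inhibitory Smad genes Smad6 and Smad7, the genes of the pathway regulators Bambi, Skil and Spsb1, and the genes of the secreted proteins Tgfbi and Olfml3. They were chosen by gene symbol with earlier results of these data known, and all 10 were found among the 53819 genes of the count files. Counts of them set beside the share of all genes are therefore descriptions and no test of the set. All 10 passed the filter on low counts, which kept 13151 genes. The monocytes were wild-type C57Bl6J cells from bone marrow, and the 12 libraries form 4 groups of 3. The first group (PLT_LPS) was exposed to platelets overnight and to lipopolysaccharide (LPS), a component of the outer membrane of Gram-negative bacteria that activates Toll-like receptor 4. The second group (LPS) received LPS without platelets, the third group (PLT) received platelets overnight without LPS, and the fourth group (NC) received neither. Doses, the length of the LPS stimulation and its timing relative to the platelets were not given in the sources used here. Nothing in the labels ties the replicates to different animals or different cultures. The p-values below therefore reflect spread among libraries that could be technical.

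TGF-beta 1 is made as a latent precursor, and platelets are known to store it in their alpha granules. Once released from its latent complex it binds the type II receptor, encoded by Tgfbr2, which phosphorylates the type I receptor, encoded by Tgfbr1. The type I receptor then phosphorylates SMAD2 and SMAD3, which enter the nucleus with SMAD4 and regulate target genes. Several of the targets feed back: SMAD6 and SMAD7 block receptor signalling, BAMBI is a pseudoreceptor without a kinase domain, SnoN (the product of Skil) represses SMAD-dependent transcription, and SPSB1 is an adaptor of a ubiquitin ligase reported to lower the level of the type II receptor. TGFBI is a secreted matrix protein named for its induction by TGF-beta, and OLFML3 is a secreted olfactomedin-family glycoprotein known as a microglial gene. In monocytes and macrophages TGF-beta is known to restrain inflammatory activation and to shape tissue identity.

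Total counts per library ranged between 20060867 and 32155727, so that 3 counts corresponded to 0.0854 to 0.163 CPM (read counts scaled to library size). All 12 monocyte markers listed for the check of cell identity were detected in every group. PLT replicate 1 carries the word Control in its description, while platelets are named in its title and treatment. It was kept in PLT by its title, and calls of the 10 genes that change without it are given without it as well. Set against the other PLT libraries its counts gave chi-square values, divided by their degrees of freedom, of 76.2 and 83.5, where all other pairs within a group gave 6.75 to 21.6. The summed level of the 14 platelet markers that stood under 1 CPM in NC was 26.1 to 29.8 CPM in PLT_LPS, 1.04 to 1.83 CPM in LPS, 38.7 to 68.0 CPM in PLT and 1.43 to 1.79 CPM in NC, and the 68.0 CPM was that of PLT replicate 1. Of the whole list of 20 platelet markers, 19 were detected in PLT_LPS, 15 in LPS, 19 in PLT and 15 in NC. The whole list summed to 3761 to 4030 CPM in PLT_LPS, 3914 to 4729 CPM in LPS, 3569 to 6420 CPM in PLT and 3821 to 4526 CPM in NC, since Pf4 alone made up most of it in every group. Erythroid markers summed to 7.08 to 9.35 CPM in PLT_LPS and 0.0362 to 0.650 CPM in LPS, and to 11.9 to 24.5 CPM in PLT and 1.12 to 1.61 CPM in NC. Dendritic cell markers summed to 488 to 545 CPM in PLT_LPS and 348 to 434 CPM in LPS, and to 138 to 218 CPM in PLT and 88.8 to 103 CPM in NC. Neutrophil markers summed to 207 to 242 CPM in PLT_LPS and 276 to 342 CPM in LPS, and to 206 to 247 CPM in PLT and 375 to 400.0 CPM in NC. Basophil and mast cell markers summed to 83.9 to 95.3 CPM in PLT_LPS, 105 to 109 CPM in LPS, 7.92 to 9.82 CPM in PLT and 1.47 to 2.56 CPM in NC. Stromal and endothelial markers summed to 39.3 to 43.2 CPM in PLT_LPS, 43.3 to 50.4 CPM in LPS, 8.45 to 10.8 CPM in PLT and 8.21 to 9.40 CPM in NC. B cell markers stayed at or below 4.75 CPM in sum, and those of T and NK cells stayed at or below 1.02 CPM. Platelets carry RNA, and the part of these transcripts and cells in the results between groups was not tested. In such bulk libraries fewer cells of a type and less RNA per cell cannot be told apart.

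In untreated monocytes the 10 genes differed widely in level. On a scale of CPM per kilobase of exon, Tgfbi was the highest at 137 ± 7.03 (SD, n = 3), followed by Tgfb1 at 27.6 ± 0.916. Olfml3 came next at 14.4 ± 0.727 CPM per kilobase. Bambi (10.8 ± 0.277), Tgfbr1 (10.3 ± 1.31), Tgfbr2 (9.58 ± 1.52) and Smad6 (9.43 ± 0.546) lay close together, and neighbours in that order did not differ beyond their spread. Skil stood at 7.52 ± 1.44 CPM per kilobase, and Smad7 (3.08 ± 0.293) and Spsb1 (2.84 ± 0.614) were the lowest and overlapped in their spread. The lowest count of any of the 10 genes in any library was 43, for Smad7 in LPS replicate 3.

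**Figure D1:**
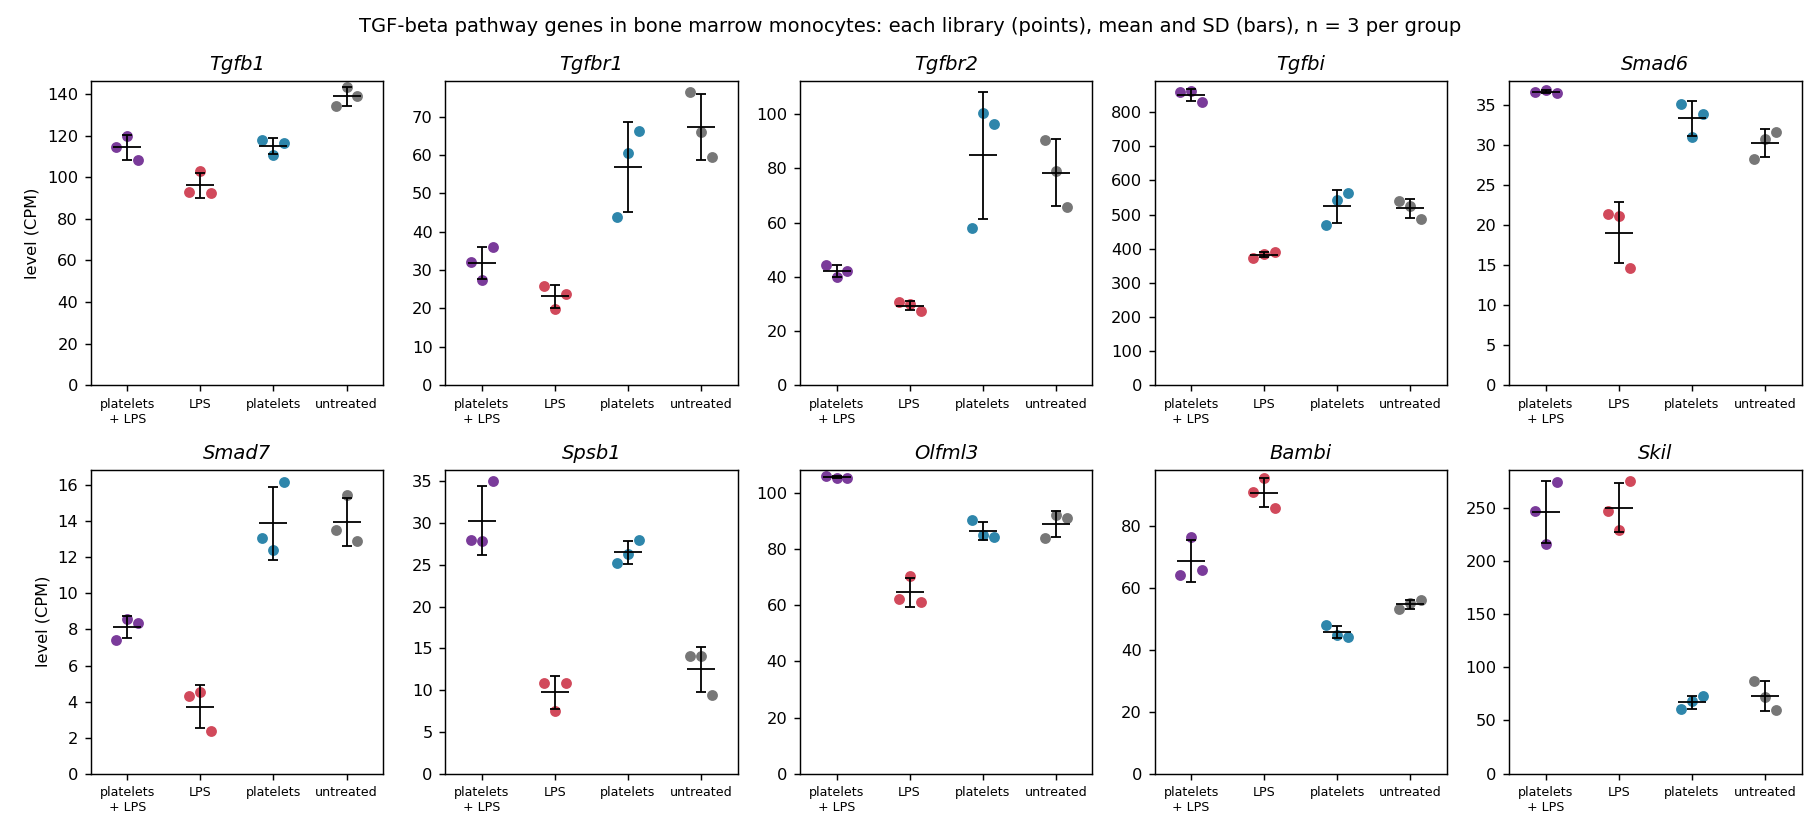
Level of each of the 10 TGF-beta genes in CPM (y axis, its own range in each panel) in PLT_LPS, LPS, PLT and NC. Points are single libraries and bars mark the mean ± SD of 3 libraries. Tgfb1, Tgfbr1, Tgfbr2, Tgfbi, Smad6, Smad7 and Olfml3 are lower in LPS than in the 3 other groups. Skil is high in both groups with LPS, and Spsb1 is high in both groups with platelets.

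LPS without platelets lowered 7 of the 10 genes and raised 2, compared with NC. Over all genes tested 50.7% passed the same test (edgeR quasi-likelihood, Benjamini-Hochberg adjusted p below 0.05), 27.7% higher and 23.0% lower. The median log2 fold change of the 10 genes was -0.50, beside 0.01 over all genes tested. That all-gene median moved to -0.19 with upper-quartile scaling and to -0.37 with library size alone, and the share of calls that were higher moved to 37.9% and 26.3%, against 54.6% in the reported fit. The 9 called genes kept their direction under every scaling tried.

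The receptors fell. Tgfbr1 had 25.8, 19.9 and 23.8 CPM in LPS, against 76.5, 66.2 and 59.5 CPM in NC. Tgfbr2 had 30.6, 29.9 and 27.5 CPM in LPS, against 90.5, 79.2 and 65.7 CPM in NC. Every LPS library lay below every NC library for both genes, with a 2.91-fold lower level for Tgfbr1 (log2 -1.54, SE 0.16, edgeR adjusted p = 5.38e-07) and a 2.67-fold lower level for Tgfbr2 (log2 -1.42, SE 0.17, edgeR adjusted p = 3.37e-06). The ligand gene Tgfb1 had 93.0, 103 and 92.5 CPM in LPS, against 134, 144 and 139 CPM in NC. The groups did not overlap, and the level was 1.45-fold lower in LPS (log2 -0.53, SE 0.08, edgeR adjusted p = 3.72e-05).

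Among the inhibitors, Smad7 fell the most of the 10 genes. It had 4.31, 4.51 and 2.34 CPM in LPS, against 13.5, 15.4 and 12.9 CPM in NC. The groups were far apart, with a 3.69-fold lower level in LPS (log2 -1.88, SE 0.20, edgeR adjusted p = 8.2e-07). Smad6 had 21.3, 21.1 and 14.6 CPM in LPS, against 28.3, 30.8 and 31.6 CPM in NC, a 1.58-fold lower level (log2 -0.66, SE 0.13, edgeR adjusted p = 0.000373). The other inhibitors moved the opposite way. Skil had 246, 229 and 275 CPM in LPS, against 87.3, 71.9 and 59.5 CPM in NC. All LPS libraries were well above all NC libraries, with a 3.43-fold higher level in LPS (log2 1.78, SE 0.13, edgeR adjusted p = 1.46e-08). Bambi had 91.1, 95.5 and 85.9 CPM in LPS, against 53.2, 55.0 and 56.0 CPM in NC, a 1.66-fold higher level without overlap (log2 0.73, SE 0.09, edgeR adjusted p = 3.61e-06).

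The secreted products were modestly lower. Tgfbi had 373, 385 and 389 CPM in LPS, against 539, 526 and 488 CPM in NC, and was 1.35-fold lower (log2 -0.44, SE 0.08, edgeR adjusted p = 0.000236). Olfml3 had 62.2, 70.4 and 61.0 CPM in LPS, against 83.8, 92.0 and 91.0 CPM in NC, and was 1.38-fold lower (log2 -0.46, SE 0.08, edgeR adjusted p = 0.000214). The groups did not overlap for either gene. Spsb1 did not pass the test: it had 10.9, 7.47 and 10.8 CPM in LPS, against 14.1, 14.1 and 9.39 CPM in NC, with overlapping groups (log2 -0.36, SE 0.18, edgeR adjusted p = 0.0998). Spsb1 passed without NC replicate 3 (log2 -0.53, edgeR adjusted p = 0.0168), with upper-quartile scaling (-0.56, edgeR adjusted p = 0.013) and with library size alone (-0.75, edgeR adjusted p = 0.00298).

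In monocytes exposed to platelets as well as LPS, 6 of the 10 genes differed from LPS alone: Tgfbi, Smad6, Smad7, Spsb1 and Olfml3 were higher and Bambi was lower. Over all genes tested 7.28% passed the test, 4.41% higher and 2.87% lower. The median log2 fold change of the 10 genes was 0.61, beside 0.01 over all genes. The upstream sequences of 4 of the 5 higher genes are shown because these genes moved together, and the counts of motifs in them can be set against all genes. Each is the 250 bases before the annotated start, taken from RefSeq on GRCm38.p6, read 5′ to 3′ on the gene's own strand. Capitals mark the SMAD box CAGAC and the SP1 box GGGCGG on either strand, and no match of these motifs overlapped another kind. The windows are chr13:56609336-56609585 (+) for Tgfbi, chr9:64022060-64022309 (-) for Smad6, chr3:103738002-103738251 (-) for Olfml3 and chr4:149955007-149955256 (-) for Spsb1.
Tgfbi: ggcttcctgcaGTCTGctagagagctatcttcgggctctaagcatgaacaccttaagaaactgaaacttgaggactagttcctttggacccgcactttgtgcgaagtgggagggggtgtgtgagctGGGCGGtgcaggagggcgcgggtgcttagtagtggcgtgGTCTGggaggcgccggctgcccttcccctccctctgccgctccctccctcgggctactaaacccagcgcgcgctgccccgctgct
Smad6: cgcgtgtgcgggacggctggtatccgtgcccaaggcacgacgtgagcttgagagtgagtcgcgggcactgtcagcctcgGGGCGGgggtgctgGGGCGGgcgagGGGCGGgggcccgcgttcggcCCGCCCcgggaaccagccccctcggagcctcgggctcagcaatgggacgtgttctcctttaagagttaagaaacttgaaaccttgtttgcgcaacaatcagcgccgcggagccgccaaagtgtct
Olfml3: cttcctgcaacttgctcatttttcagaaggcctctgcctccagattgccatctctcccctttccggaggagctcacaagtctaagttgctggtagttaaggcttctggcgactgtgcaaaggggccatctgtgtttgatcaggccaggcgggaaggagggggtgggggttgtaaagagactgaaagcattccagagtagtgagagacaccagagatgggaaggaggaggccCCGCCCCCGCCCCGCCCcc
Spsb1: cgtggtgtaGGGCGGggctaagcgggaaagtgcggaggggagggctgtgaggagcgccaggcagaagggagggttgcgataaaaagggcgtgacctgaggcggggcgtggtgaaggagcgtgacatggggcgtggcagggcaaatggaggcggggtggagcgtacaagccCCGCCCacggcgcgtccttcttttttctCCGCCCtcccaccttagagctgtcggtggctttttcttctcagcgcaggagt
The Tgfbi window held 2 SMAD boxes and 1 SP1 box. The other windows shown held no SMAD box and 4 (Smad6), 3 (Olfml3) and 3 (Spsb1) SP1 boxes. Smad7, also among the 5 higher genes, had no window in the RefSeq set used. Members not called in this comparison held these motifs as well. The Tgfb1 window held 5 SP1 boxes and the Tgfbr2 window 1 SMAD box. For Tgfbr1, 1 window held 2 SP1 boxes and another held 1 SMAD box. Of 32851 mouse upstream windows of the same length, 42.2% held at least 1 CAGAC and 32.7% at least 1 GGGCGG. The palindromic SMAD site GTCTAGAC, searched the same way, was in 0.167% of all windows and in none of those of the 7 members that matched the RefSeq table. These matches describe the letters of the windows and do not show binding.

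Tgfbi, the matrix protein gene, had 858, 861 and 831 CPM in PLT_LPS, against 373, 385 and 389 CPM in LPS. The PLT_LPS libraries were the highest of all 12 for this gene, and the level was 2.22-fold higher than with LPS alone (log2 1.15, SE 0.08, edgeR adjusted p = 1.94e-07). Olfml3 had 106, 105 and 105 CPM in PLT_LPS, against 62.2, 70.4 and 61.0 CPM in LPS. Its PLT_LPS libraries were again above all others, with a 1.63-fold higher level (log2 0.71, SE 0.08, edgeR adjusted p = 5.77e-05).

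Both inhibitory Smad genes were higher. Smad6 had 36.6, 36.9 and 36.5 CPM in PLT_LPS, against 21.3, 21.1 and 14.6 CPM in LPS, 1.92-fold higher (log2 0.94, SE 0.13, edgeR adjusted p = 0.00024). Smad7 had 7.42, 8.57 and 8.37 CPM in PLT_LPS, against 4.31, 4.51 and 2.34 CPM in LPS, 2.15-fold higher (log2 1.10, SE 0.20, edgeR adjusted p = 0.00307). The groups did not overlap for either gene, and LPS replicate 3 was the lowest library for both. Spsb1, the adaptor that targets the type II receptor, had 28.0, 27.9 and 35.0 CPM in PLT_LPS, against 10.9, 7.47 and 10.8 CPM in LPS. Every PLT_LPS library held more than 2 times the level of every LPS library, and the fold of 3.12 was the highest of the 10 genes in this comparison (log2 1.64, SE 0.17, edgeR adjusted p = 2.04e-05). Spsb1 was the only one of the 10 genes with exonic bases shared with a gene on the opposite strand (103 bases of Gm13070 in the GENCODE annotation given). The strand setting of the counting is not known, so reads of the pair cannot be told apart over these bases.

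Bambi, the pseudoreceptor gene, had 64.2, 76.5 and 65.7 CPM in PLT_LPS, against 91.1, 95.5 and 85.9 CPM in LPS. The groups did not overlap and the level was 1.32-fold lower with platelets (log2 -0.40, SE 0.09, edgeR adjusted p = 0.01). The call was lost when LPS replicate 2 (edgeR adjusted p = 0.052), PLT_LPS replicate 1 (edgeR adjusted p = 0.0656) or PLT_LPS replicate 3 (edgeR adjusted p = 0.0505) was left out. Skil had 247, 216 and 274 CPM in PLT_LPS, against 246, 229 and 275 CPM in LPS, and the groups overlapped almost fully (log2 -0.03, SE 0.13, edgeR adjusted p = 0.946).

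The ligand and receptor genes did not pass the test over all 12 libraries. Their groups did not overlap, but the share of all genes whose groups do not overlap was not counted. Tgfb1 had 115, 120 and 108 CPM in PLT_LPS, against 93.0, 103 and 92.5 CPM in LPS (log2 0.25, SE 0.08, edgeR adjusted p = 0.0739), and it passed with DESeq2 (adjusted p = 0.0123). Tgfbr1 had 32.0, 27.5 and 36.0 CPM in PLT_LPS, against 25.8, 19.9 and 23.8 CPM in LPS (log2 0.46, SE 0.16, edgeR adjusted p = 0.0991). Tgfbr2 had 44.2, 40.0 and 42.0 CPM in PLT_LPS, against 30.6, 29.9 and 27.5 CPM in LPS (log2 0.52, SE 0.17, edgeR adjusted p = 0.0829). Both receptor genes passed without a filter on low counts (edgeR adjusted p of 0.00638 for Tgfbr1 and 0.000654 for Tgfbr2). For the ligand gene and both receptor genes the PLT_LPS values stood between those of LPS and NC. Without PLT replicate 1, which belongs to neither group but enters the shared fit, all of these passed, with an edgeR adjusted p of 0.033 for Tgfb1, 0.0211 for Tgfbr1 and 0.00333 for Tgfbr2, so that 9 of the 10 genes were called. Over all genes the calls then numbered 1640, against 957 with that library.

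**Figure D2:**
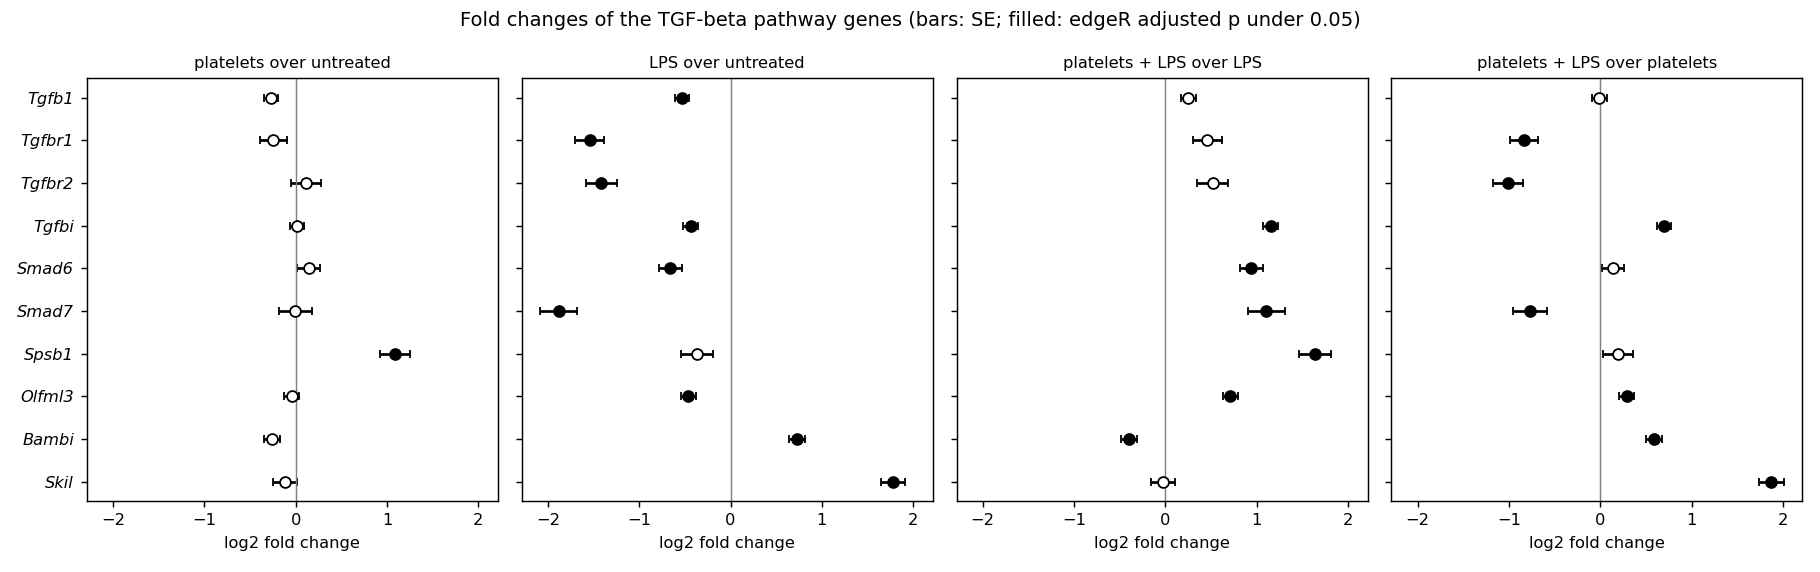
Log2 fold change (x axis) of each of the 10 genes in each comparison, with bars of 1 SE from edgeR; filled points passed the adjusted p threshold of 0.05. In PLT_LPS against LPS the points of Tgfbi (1.15), Smad6 (0.94), Smad7 (1.10), Spsb1 (1.64) and Olfml3 (0.71) lie to the right, and in PLT against NC only that of Spsb1 (1.09) is filled.

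Without LPS, platelets changed 1 of the 10 genes. Over all genes tested 6.49% passed the test between PLT and NC, 3.63% higher and 2.86% lower. Spsb1 had 25.3, 26.3 and 28.0 CPM in PLT, against 14.1, 14.1 and 9.39 CPM in NC. All PLT libraries were above all NC libraries, with a 2.12-fold higher level (log2 1.09, SE 0.17, edgeR adjusted p = 0.000887). The median log2 fold change of the 10 genes was -0.02, beside 0.00 over all genes. None of the 10 genes was lower by edgeR, where 2 were lower at an unadjusted p below 0.05, 2 by DESeq2 and 1 by limma-voom.

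Tgfb1 was near the threshold. It had 118, 111 and 116 CPM in PLT, against 134, 144 and 139 CPM in NC. The groups did not overlap (log2 -0.27, SE 0.08, edgeR adjusted p = 0.0549). The share of all genes whose groups do not overlap was not counted for this comparison either. Tgfb1 passed without PLT replicate 1 (edgeR adjusted p = 0.0456), with DESeq2 (adjusted p = 0.0061) and with limma-voom (adjusted p = 0.0398). Bambi had 48.0, 44.8 and 44.3 CPM in PLT, against 53.2, 55.0 and 56.0 CPM in NC, again without overlap and without passing the test (log2 -0.26, SE 0.09, edgeR adjusted p = 0.0979). It passed with DESeq2 (adjusted p = 0.0415).

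The genes that were higher with platelets under LPS, other than Spsb1, were close to NC when platelets acted alone. Tgfbi had 469, 541 and 562 CPM in PLT, against 539, 526 and 488 CPM in NC (log2 0.02, SE 0.08). Smad6 had 35.2, 31.0 and 33.9 CPM in PLT, against 28.3, 30.8 and 31.6 CPM in NC (log2 0.14, SE 0.12). Smad7 had 13.1, 12.4 and 16.2 CPM in PLT, against 13.5, 15.4 and 12.9 CPM in NC (log2 -0.01, SE 0.18). The groups overlapped for each of these genes. Olfml3 had 90.2, 84.9 and 84.1 CPM in PLT, against 83.8, 92.0 and 91.0 CPM in NC, also with overlap (log2 -0.04, SE 0.08). The receptors and Skil overlapped as well, and within PLT the receptors were lowest in replicate 1: Tgfbr2 had 58.0, 100.4 and 96.3 CPM and Tgfbr1 had 43.8, 60.7 and 66.2 CPM.

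Whether the effect of platelets differed with and without LPS was tested as an interaction in the same fit. The difference passed for 4 of the 10 genes, all with a higher effect under LPS, while 1.58% of all genes tested passed (0.859% higher and 0.722% lower). The median difference of the 10 genes was 0.63 on the log2 scale, beside 0.01 over all genes. None was lower by edgeR, with none lower at an unadjusted p below 0.05 (7 were higher), and none by DESeq2 or limma-voom. For Tgfbi the platelet effect was 1.15 with LPS and 0.02 without it, a difference of 1.13 (SE 0.11, edgeR adjusted p = 9.82e-05). For Olfml3 it was 0.71 with LPS and -0.04 without it, a difference of 0.75 (SE 0.12, edgeR adjusted p = 0.00357). These 2 genes passed whichever single library was left out. The differences of Smad6 (0.80, SE 0.18, edgeR adjusted p = 0.0324) and Tgfb1 (0.52, SE 0.11, edgeR adjusted p = 0.0299) depended on single libraries. For Smad6 the call was lost without NC replicate 1, 2 or 3, PLT replicate 2, or PLT_LPS replicate 1, 2 or 3, with adjusted p up to 0.108. For Tgfb1 it was lost without LPS replicate 1 or 3, NC replicate 1, 2 or 3, PLT replicate 2, or PLT_LPS replicate 1 or 2, with adjusted p up to 0.1125. The Tgfb1 call was also lost without a filter on low counts (edgeR adjusted p = 0.05085). With a replicate block both calls were lost (edgeR adjusted p of 0.0721 for Smad6 and 0.0681 for Tgfb1). Only Tgfbi and Olfml3 were called, 2 genes in place of 4, without NC replicate 1, 2 or 3, PLT replicate 2, or PLT_LPS replicate 1 or 2.

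Spsb1, which was higher with platelets in both settings, had a difference of 0.55 that did not pass (SE 0.24, edgeR adjusted p = 0.411). Smad7 had a larger difference of 1.11 and missed the threshold (SE 0.27, edgeR adjusted p = 0.0567), and it passed with DESeq2 (adjusted p = 0.00315), without a filter on low counts (edgeR adjusted p = 0.0024) and without PLT replicate 3 (edgeR adjusted p = 0.0436). The differences of Tgfbr1 (0.70, SE 0.22), Tgfbr2 (0.40, SE 0.24), Bambi (-0.14, SE 0.12) and Skil (0.09, SE 0.19) did not pass. That of Tgfbr1 passed without a filter on low counts (0.72, edgeR adjusted p = 0.00564).

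**Figure D3:**
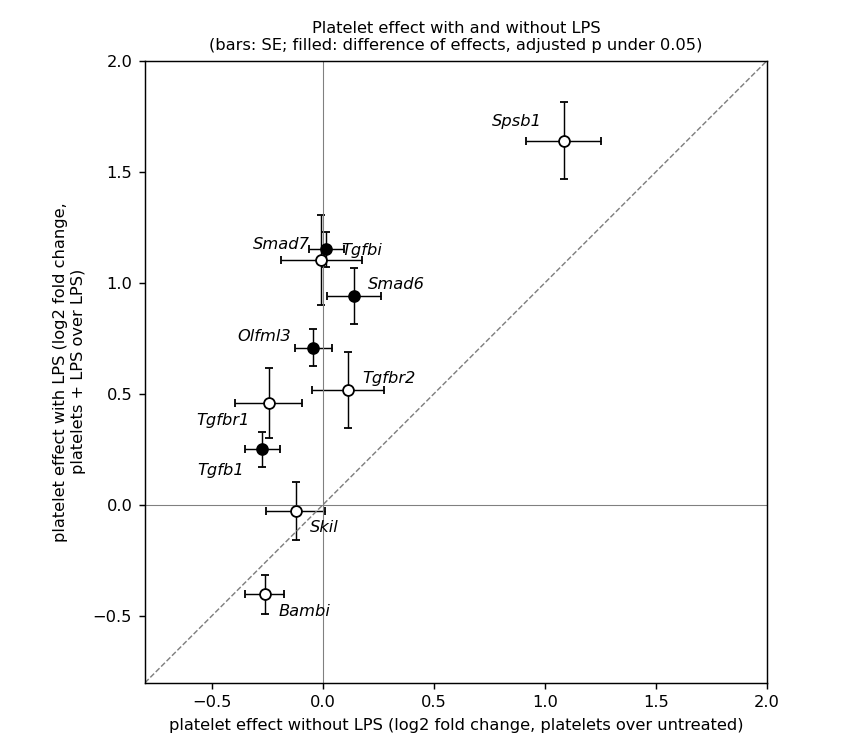
Platelet effect with LPS (y axis, log2 of PLT_LPS over LPS) against the platelet effect without LPS (x axis, log2 of PLT over NC) for the 10 genes, with bars of 1 SE and a dashed line of equal effects. Filled points (Tgfb1, Tgfbi, Smad6 and Olfml3) passed the test of the difference at an adjusted p below 0.05. Tgfbi (1.15 and 0.02), Olfml3 (0.71 and -0.04) and Smad6 (0.94 and 0.14) lie well above the line, Spsb1 is high on both axes (1.64 and 1.09), and Skil and Bambi lie near the line.

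Setting PLT_LPS against PLT gives the LPS response of platelet-exposed monocytes. Of the 10 genes, 4 were higher and 3 lower, where 49.4% of all genes tested passed (27.6% higher and 21.8% lower). The median log2 fold change was 0.16, beside 0.02 over all genes, and the all-gene median was -0.22 with upper-quartile scaling and -0.34 with library size alone. The share of all calls that were higher was 55.8%, and 35.4% and 27.6% with those scalings. This comparison shares the PLT_LPS libraries with the comparison against LPS. The 14 platelet markers low in NC also differed here, at 26.1 to 29.8 CPM in PLT_LPS and 38.7 to 68.0 CPM in PLT.

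The receptors were again lower, with Tgfbr1 at 32.0, 27.5 and 36.0 CPM in PLT_LPS, against 43.8, 60.7 and 66.2 CPM in PLT (1.79-fold lower, log2 -0.84, SE 0.15, edgeR adjusted p = 0.00028). Tgfbr2 had 44.2, 40.0 and 42.0 CPM in PLT_LPS, against 58.0, 100.4 and 96.3 CPM in PLT (2.02-fold lower, log2 -1.01, SE 0.17, edgeR adjusted p = 9.81e-05). The groups did not overlap for either receptor. Smad7 was 1.71-fold lower, with 7.42, 8.57 and 8.37 CPM in PLT_LPS, against 13.1, 12.4 and 16.2 CPM in PLT (log2 -0.78, SE 0.19, edgeR adjusted p = 0.00261). Skil was 3.66-fold higher, with 247, 216 and 274 CPM in PLT_LPS, against 60.3, 67.8 and 73.0 CPM in PLT (log2 1.87, SE 0.14, edgeR adjusted p = 8.49e-09). Bambi was 1.51-fold higher, with 64.2, 76.5 and 65.7 CPM in PLT_LPS, against 48.0, 44.8 and 44.3 CPM in PLT (log2 0.59, SE 0.09, edgeR adjusted p = 3.79e-05).

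Tgfbi was higher here, not lower as with LPS alone: 858, 861 and 831 CPM in PLT_LPS stood against 469, 541 and 562 CPM in PLT (1.62-fold higher, log2 0.70, SE 0.08, edgeR adjusted p = 1.91e-06). Olfml3 was 1.22-fold higher (log2 0.29, SE 0.08, edgeR adjusted p = 0.00838), but its direction turned with library size alone (-0.07), and the value was 0.05 with upper-quartile scaling. Smad6 (log2 0.14, SE 0.12) and Spsb1 (log2 0.19, SE 0.16) did not pass, and both turned below 0 with upper-quartile scaling (-0.10 and -0.05) and with library size alone (-0.22 and -0.17). Tgfb1 did not pass (log2 -0.01, SE 0.08), and it was lower with upper-quartile scaling (-0.25, edgeR adjusted p = 0.0147) and with library size alone (-0.37, edgeR adjusted p = 0.000794).

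Other genes of the pathway were read from 5 lists: ligands with the genes of latent complexes and their activation, receptors, SMAD proteins and their partners, regulators of receptor and SMAD turnover, and response genes. None of the 10 genes is in these lists. Among the response genes, P2ry12 also encodes an ADP receptor of platelets and Siglech is also a dendritic cell marker. Of the ligand and activation list, 11 of 20 genes were tested. Between PLT and NC 3 of these were higher and none was lower by edgeR, where 2 were lower at an unadjusted p below 0.05 and 1 each by DESeq2 and limma-voom. Over all genes tested 3.63% were higher and 2.86% lower by edgeR in this comparison. Mmp14, a membrane metalloprotease able to activate latent TGF-beta, was 4.03-fold higher, at 66.6 ± 10.4 CPM in PLT and 16.5 ± 2.67 CPM in NC (SD, n = 3 each; edgeR adjusted p = 5.42e-08). Thbs1, whose product thrombospondin 1 is a latent TGF-beta activator held in platelet granules, had 131, 255 and 269 CPM in PLT, against 91.3, 70.7 and 54.3 CPM in NC. It was 3.03-fold higher (edgeR adjusted p = 0.000325), and within PLT it was lowest in replicate 1. The source of these transcripts was not tested. Gdf15, a distant member of the ligand family, was 1.60-fold higher (edgeR adjusted p = 0.0255), a call lost without NC replicate 1 or 2 or PLT replicate 1 or 2.

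Under LPS the same list gave 1 higher and 2 lower genes with platelets (median log2 -0.03). Over all genes tested 4.41% were higher and 2.87% lower (median 0.01). Furin, the protease that cleaves the TGF-beta precursor, had 300, 317 and 330 CPM in PLT_LPS, against 167, 182 and 174 CPM in LPS, 1.81-fold higher without overlap (edgeR adjusted p = 1.08e-05). Gdf15 had 18.8, 25.1 and 17.5 CPM in PLT_LPS, against 54.3, 60.9 and 45.8 CPM in LPS, 2.63-fold lower (edgeR adjusted p = 6.75e-05). Itgb8, the subunit of an integrin that activates latent TGF-beta, was 2.23-fold lower (edgeR adjusted p = 0.00128). LPS itself, against NC, raised 7 of the 11 genes and lowered 3, where 27.7% of all genes tested were higher and 23.0% lower. Of those raised, Itgb8 and Inhba (0.0468 CPM in NC and 1.68 CPM in LPS) passed the low-count filter only through libraries with LPS. Of those lowered, Itgb3 (0.914 CPM in NC and 0.157 CPM in LPS) passed it only through groups without LPS. For these genes the direction is no result separate from the filter. Itgb8 averaged 40.4 ± 6.55 CPM in LPS and had no count in any NC library, at least 388-fold higher against a floor of 3 counts per library. Nrros, which tethers latent TGF-beta on myeloid cells, had 106, 81.5 and 80.9 CPM in LPS, against 404, 400 and 394 CPM in NC, 4.47-fold lower (edgeR adjusted p = 8.73e-11).

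Of the receptor list all 11 genes were tested. No receptor gene passed between PLT_LPS and LPS (median log2 0.14) or between PLT and NC (median -0.16) by edgeR, DESeq2 or limma-voom, and none had an unadjusted p below 0.05 in either. Over all genes tested 7.28% and 6.49% passed by edgeR in these comparisons. Between LPS and NC 3 receptor genes were higher and 2 lower, 5 of 11 in all where 50.7% of all genes passed, and 3 passed without LPS replicate 2 or without any 1 NC replicate. Tgfbr3, among those higher (0.151 CPM in NC and 0.582 CPM in LPS), passed the low-count filter only through libraries with LPS. Without PLT replicate 1, 1 receptor gene passed between PLT and NC. Eng, the co-receptor endoglin, was 2.24-fold higher in LPS (edgeR adjusted p = 1.64e-06).

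Of the SMAD and partner list 14 of 17 genes were tested. Under LPS 4 of them were higher with platelets by edgeR, 4 by DESeq2 and 3 by limma-voom. None was lower by any of these tools, with 1 lower at an unadjusted p below 0.05. By edgeR 4.41% of all genes tested were higher and 2.87% lower. Ski, a SMAD co-repressor related to SnoN, was 1.77-fold higher in PLT_LPS than in LPS (edgeR adjusted p = 0.00034). Runx3, a transcription factor that partners with SMADs, was higher by 1.43 on the log2 scale (edgeR adjusted p = 0.00118), and Smad3 was 1.88-fold higher (edgeR adjusted p = 0.0188). The Smad3 call was lost with limma-voom (adjusted p = 0.0763), with only the 2 groups compared (edgeR adjusted p = 0.0673), and without LPS replicate 1 or 2 or PLT_LPS replicate 2 or 3. In those 4 fits that leave out a library 2 genes of the list passed. With LPS alone Smad3 was 6.28-fold lower than in NC (edgeR adjusted p = 2.34e-08) and Ski was 3.65-fold lower (edgeR adjusted p = 9.8e-10). Between PLT and NC 2 genes of the list were lower and none higher by edgeR, DESeq2 or limma-voom, with 1 higher at an unadjusted p below 0.05. The lower genes were Ep300 (log2 -0.68, edgeR adjusted p = 0.00976) and Runx1 (log2 -0.49, edgeR adjusted p = 0.0371). The Runx1 call was lost without LPS replicate 3, any 1 NC replicate, PLT replicate 1 or 2, or PLT_LPS replicate 1 (edgeR adjusted p up to 0.171). It was also lost with DESeq2 size factors, library size alone, a replicate block and only the 2 groups compared (edgeR adjusted p of 0.056, 0.0553, 0.0515 and 0.13). Over all genes tested 3.63% were higher and 2.86% lower by edgeR between PLT and NC. None of the list passed without NC replicate 2 or PLT replicate 2, and 1 passed without LPS replicate 3, NC replicate 1 or 3, PLT replicate 1 or PLT_LPS replicate 1.

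All 15 regulators of turnover were tested. Under LPS 1 was higher and 1 lower with platelets, where 4.41% of all genes tested were higher and 2.87% lower. Pmepa1, a TGF-beta-induced gene whose product sequesters SMAD2 and SMAD3, had 15.6, 17.5 and 14.9 CPM in PLT_LPS, against 2.28, 3.21 and 1.47 CPM in LPS. The groups were far apart, with a 6.79-fold higher level in PLT_LPS (edgeR adjusted p = 0.000385). Ppp1r15a was lower (log2 -0.33, edgeR adjusted p = 0.0368). Its call was lost without LPS replicate 1 or 2, any 1 NC replicate or any 1 PLT_LPS replicate (edgeR adjusted p up to 0.175). It was also lost without a filter on low counts (edgeR adjusted p = 0.104) and with a replicate block (edgeR adjusted p = 0.063). In all, 4 genes of the list passed without PLT replicate 1, and 1 passed without LPS replicate 1 or 2, any 1 NC replicate, or PLT_LPS replicate 1 or 2. Between PLT and NC only Rnf111, a ubiquitin ligase that acts on SnoN and SMAD7, passed (log2 -0.41, edgeR adjusted p = 0.00708), while 4 genes passed without PLT replicate 3 and 2 without PLT replicate 1. Over all genes tested 6.49% passed between PLT and NC with all 12 libraries.

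Of the response genes 22 of 26 were tested. Under LPS 9 were higher with platelets and 3 lower (median log2 0.32), and without LPS 7 were higher and none lower by edgeR, DESeq2, limma-voom or an unadjusted p below 0.05 (median 0.31). Over all genes tested 4.41% were higher with platelets and 2.87% lower under LPS (median 0.01). Without LPS these shares were 3.63% and 2.86% (median 0.00). Cx3cr1, the fractalkine receptor gene and also one of the monocyte markers, had 85.2, 81.2 and 86.3 CPM in PLT_LPS, against 25.6, 23.2 and 29.2 CPM in LPS, 3.25-fold higher without overlap (edgeR adjusted p = 6.12e-08). Id2, a repressor of basic helix-loop-helix factors, was 1.84-fold higher under LPS (edgeR adjusted p = 0.000159). Without LPS Id2 had 335, 253 and 260 CPM in PLT, against 116, 113 and 124 CPM in NC, 2.41-fold higher (edgeR adjusted p = 3.89e-06). P2ry12 had 11.5, 18.9 and 18.0 CPM in PLT, against 2.24, 0.877 and 1.67 CPM in NC, 10.1-fold higher (edgeR adjusted p = 8.58e-06), and it was 22.2-fold higher in PLT_LPS than in LPS (edgeR adjusted p = 1.78e-06). Tsc22d1, a leucine zipper gene first described as induced by TGF-beta, was 3.49-fold higher in PLT than in NC (edgeR adjusted p = 4.07e-06). LPS alone raised 9 of the 22 response genes and lowered 8, beside the 27.7% and 23.0% of all genes given above. Those lowered include Id1 (log2 -4.32, edgeR adjusted p = 3.23e-12) and Cx3cr1 (log2 -2.37, edgeR adjusted p = 2.3e-11).

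**Figure D4:**
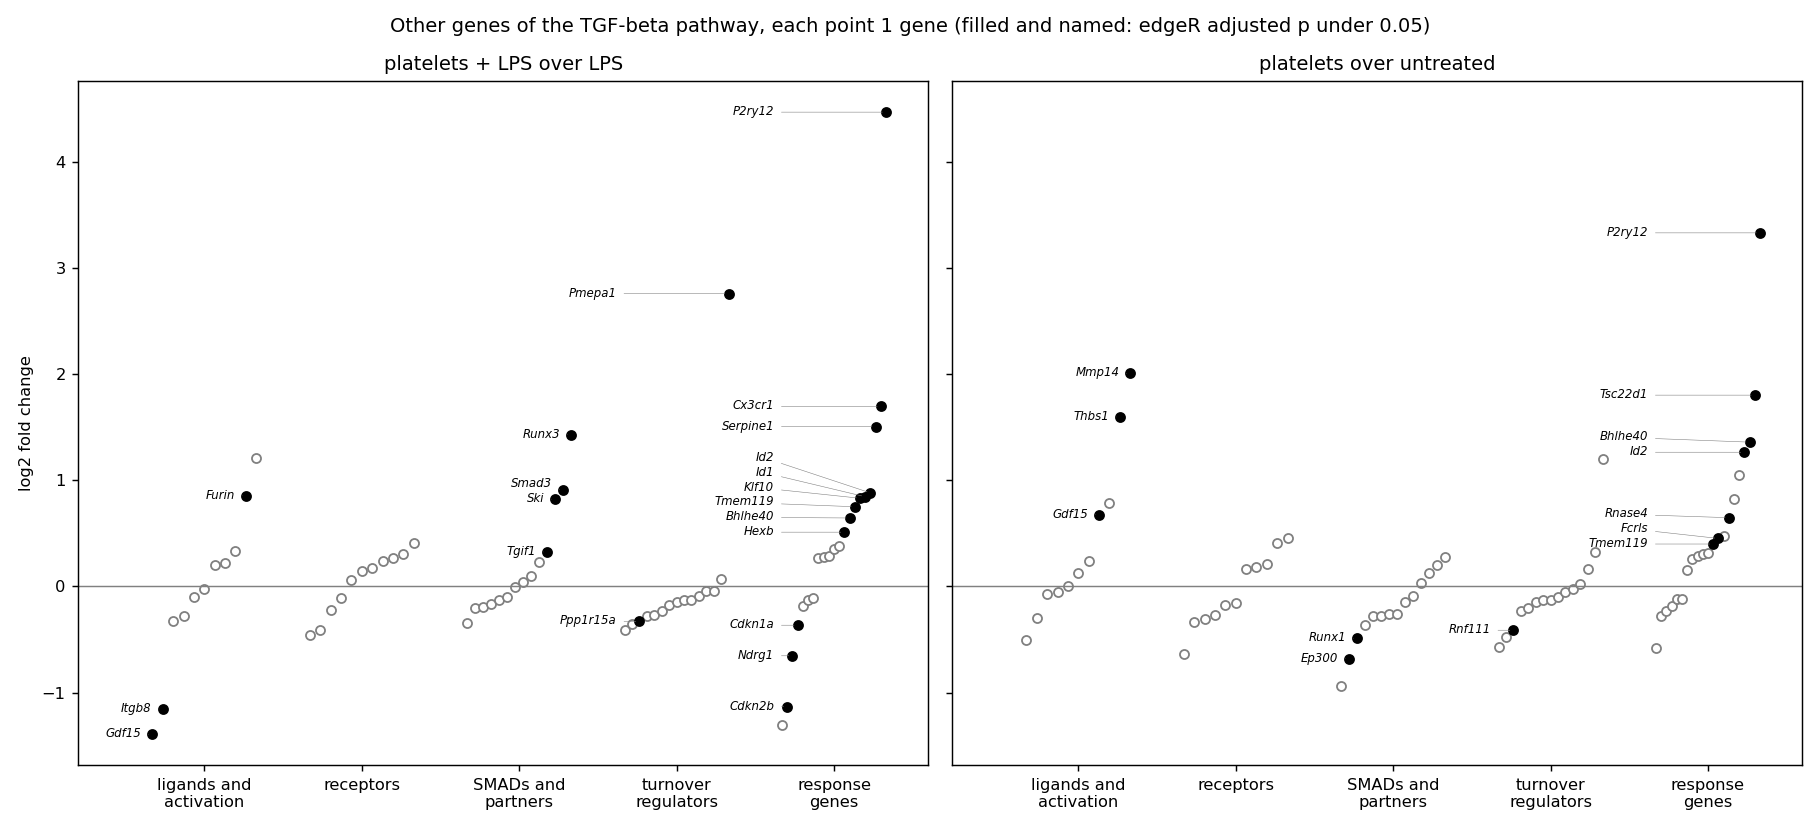
Log2 fold change (y axis) of each tested gene of the 5 pathway lists (x axis) for PLT_LPS over LPS (left) and PLT over NC (right), with each point 1 gene and filled, named points past an edgeR adjusted p of 0.05. The response genes have 9 filled points above 0 and 3 below for PLT_LPS over LPS and 7 above for PLT over NC. The receptor list, which leaves out Tgfbr1 and Tgfbr2, has none in either panel.

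Across the 12 libraries the receptor genes Tgfbr1 and Tgfbr2 followed each other (Pearson r = 0.96 of log2 CPM), as did Smad6 and Olfml3 (r = 0.93) and Tgfbi and Olfml3 (r = 0.89). These values describe 12 libraries that share 4 treatments, so they hold the differences between groups given above. Among 11559 genes compared, the pattern of Tgfbr1 was most like those of Cdk17 (r = 0.991), Inip (0.988) and Klf10 (0.985), and that of Tgfbr2 most like those of Dtx4 and Tnfrsf21 (both 0.983) and Eif2ak3 (0.982). Skil was most like Cpd and Itga4 (both 0.997) and Adgrg6 (0.996). Spsb1 was most like Cd300lf (0.950), Gna15 (0.949) and Cd226 (0.948), and Tgfb1 had the weakest partners of these, Dph2 (0.938), Epn1 (0.923) and Inafm2 (0.914).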

How the data were processed

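RNA was extracted from monocytes with the RNeasy Plus Micro kit and, from pre-amplified low-input cDNA, made into libraries with the SMARTer Ultra Low Input v4 and Nextera XT kits, per the labels' protocols. The authors deposited whole-number read counts per gene, 1 file per library and not normalized, per the file headers and values. Tools listed in the submitters' processing notes, with no role given, were Salmon 1.5.2, featureCounts, Subread 2.0.1, STAR 2.7.9a and fastp 0.23.1. The genome build, annotation and strand setting were not given in the sources used here.

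From the counts, edgeR 4.0.16 (R 4.3.3) was run with TMM scaling and filterByExpr, as 1 quasi-likelihood fit of the 4 group means over all 12 libraries, with two-sided tests and Benjamini-Hochberg adjustment over the 13151 tested genes at 0.05. CPM values use TMM-scaled library sizes. Exon lengths per gene come from the GENCODE annotation given. DESeq2 1.42.0, limma-voom (limma 3.58.1), other scalings and filters, a replicate block and leaving out each library were tried as alternatives. Data over 12870 genes were simulated for PLT against NC, without an LPS effect. The changed genes were drawn only from those above a floor on the mean count. The fit recovered 55.2% of 67 genes changed 1.5-fold, 83.6% of 67 changed 2-fold and 100% of 66 changed 4-fold. The depth range is given with the results and covers counting error only. The 10 genes and all lists were chosen with earlier results of these data known. The text describes all 10 genes, names at most 3 called genes of each pathway list and comparison, by smallest p, or repeats such a gene in another comparison, and gives for 5 of the 10 genes the 3 genes with the highest Pearson r of log2 CPM (prior count 2), leaving out predicted gene names.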

Additional observations from a re-analysis of the deposited data

Results flagged for a closer look

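The platelet effect differed with and without LPS, by the interaction test of the edgeR fit, for 4 of the 10 genes and for 8 genes of the pathway lists, where 1.58% of all genes tested passed. The 8 are 4 of 11 tested genes of the ligand and activation list, 1 of 14 SMADs and partners and 3 of 22 response genes, with none of 11 receptors or 15 turnover regulators (1 higher and 1 lower of the regulators, and 1 receptor, at an unadjusted p below 0.05; 1 regulator by DESeq2 and none by limma-voom). The 4 of the 10 genes are Tgfbi (difference 1.13 on the log2 scale, edgeR adjusted p = 9.82e-05), Olfml3 (0.75, edgeR adjusted p = 0.00357), Smad6 (0.80, edgeR adjusted p = 0.0324) and Tgfb1 (0.52, edgeR adjusted p = 0.0299). Tgfb1 had effects of opposite sign, 0.25 with LPS and -0.27 without it, and neither of them passed on its own.

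In the pathway lists, Furin (difference 1.15, edgeR adjusted p = 0.000125), Cx3cr1 (1.44, edgeR adjusted p = 9.82e-05), Runx3 (1.40, edgeR adjusted p = 0.0306) and Klf10 (0.95, edgeR adjusted p = 0.0219) had a higher platelet effect under LPS. The calls of Runx3 and Klf10 were lost without some single libraries, with edgeR adjusted p up to 0.0945 and 0.0795. Lower platelet effects under LPS were found for Mmp14 (difference -1.79, edgeR adjusted p = 5.61e-05), Thbs1 (-1.88, edgeR adjusted p = 0.00487), Tsc22d1 (-1.91, edgeR adjusted p = 0.00029) and Gdf15 (-2.07, edgeR adjusted p = 0.000209). The platelet effect on Gdf15 was -1.39 under LPS and 0.68 without it. That on Mmp14 was 0.22 under LPS and 2.01 without it, and LPS alone raised Mmp14 58.9-fold over NC. The effects on Thbs1 (-0.28) and Tsc22d1 (-0.10) did not pass under LPS, and both passed without it (1.60 and 1.80).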

How the results depend on the processing

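Of the called values of the 10 genes, 233 of 239 under alternatives other than leaving out a library kept their direction and call, 5 lost the call and 1 turned: Olfml3 in PLT_LPS against PLT, at -0.071 with library size alone. The count of the 10 genes called between PLT and NC was 1, and 2 with library size alone, 2 with the stricter filter, 3 with DESeq2 and 2 with limma-voom. The interaction count was 4 and became 2 with a replicate block. That block rests on replicate numbers that do not pair the libraries: deviations of same-numbered libraries correlated between -0.23 and 0.14 over 18 pairs (over 0.1 in 1), and those of different numbers between -0.19 and 0.24 over 36. Over all genes, the interaction gave 208 calls, 371 without a filter, 118 with the replicate block and 403 with DESeq2, and PLT against NC gave 854, 1291 with DESeq2 and 415 with only those 2 groups. Leaving out single libraries gave ranges over the 10 genes of 1 to 2 (PLT against NC), 9 to 10 (LPS against NC), 5 to 9 (PLT_LPS against LPS), 7 (PLT_LPS against PLT) and 2 to 5 (interaction). Over all genes they were 410 to 1027, 5906 to 7426, 557 to 1640, 5835 to 6754 and 87 to 361. Without PLT replicate 1 the interaction gave 361 calls over all genes, 2 among the SMADs and partners against 1 with it, and 2 among the turnover regulators against none with it.

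Uncalled values near 0 turned. For PLT against NC, Smad7 was 0.0104 with DESeq2 size factors, 0.0103 with DESeq2, 0.027 with upper-quartile scaling, 0.0036 with the replicate block and 0.0047 with only 2 groups, and Tgfbi was -0.0091 with library size alone. For PLT_LPS against PLT, Smad6 was -0.10 and -0.22 and Spsb1 -0.048 and -0.17 with upper-quartile scaling and library size alone. Over single libraries left out, Skil ranged from -0.25 to 0.031 (PLT against NC), -0.11 to 0.061 (PLT_LPS against LPS) and -0.056 to 0.22 (interaction). For PLT against NC, Smad7 ranged from -0.13 to 0.073, Tgfbi from -0.036 to 0.11 and Tgfbr2 from -0.022 to 0.35, and Tgfb1 from -0.049 to 0.029 for PLT_LPS against PLT. Tgfbr1 and Tgfbr2 passed between PLT_LPS and LPS without a filter (edgeR adjusted p of 0.00638 and 0.000654) and with only those groups (edgeR adjusted p of 0.0357 and 0.00229). The cause was not tested. With 3 libraries a group, 55.2% of simulated 1.5-fold changes were recovered for PLT against NC. That simulation held no LPS effect, so it does not cover the comparisons with LPS. The Smad7 counts in LPS are the lowest of the 10 genes.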

Other observations

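The LPS response of platelet-exposed monocytes (PLT_LPS against PLT) passed the test for 49.4% of all genes (27.6% higher and 21.8% lower), and the counts of the other pathway lists stand beside that share. Of the 15 tested turnover regulators 9 were higher and 2 lower, with Ppp1r15a, a phosphatase subunit induced by stress, 12.6-fold higher, the ubiquitin ligase gene Wwp1 4.04-fold lower and the endocytic adaptor gene Dab2 3.53-fold lower. Of the 14 tested SMADs and partners 6 were higher and 3 lower, with the transcription factor gene Zeb1 24.6-fold and the co-repressor gene Tgif1 2.06-fold higher and Ski 2.49-fold lower. Of the 11 tested genes of the ligand and activation list 5 were higher and 2 lower, with Mmp14 17.1-fold higher and Nrros 3.87-fold lower. Of the 11 tested receptors 3 were higher and 1 lower, with Eng 2.29-fold higher. Itgb8 and Inhba of the ligand list and Tgfbr3 of the receptors, all among the higher genes, passed the low-count filter only through libraries with LPS. Of the 22 tested response genes 7 were higher and 5 lower, with the AP-1 gene Junb 3.41-fold and the cell cycle inhibitor gene Cdkn1a 3.81-fold higher and Id1 15.4-fold lower.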
